A study of Mus musculus with 12 samples.

Results

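The genes described here are 8 genes of arginine and polyamine metabolism, namely *Nos2*, *Ass1*, *Asl*, *Odc1*, *Srm*, *Sms*, *Sat1* and *Oaz1*, taken by symbol from the 54532 genes of an RNA-seq count table. They were chosen by role and on earlier results of these data, in which *Nos2* and *Odc1* differed between the groups. Their levels and differences are therefore given as a description. All 8 passed the filter on low counts, which kept 14894 genes.

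Bone marrow cells of wild-type (WT) C57BL/6 mice were grown in RPMI medium with GM-CSF and IL-6, cytokines that drive myeloid differentiation, and harvested on day 5. They received vehicle (given as 0.1 DMSO in the labels), 10 µM indole-3-propionic acid (IPA), a tryptophan metabolite made by gut bacteria, or 50 µM IPA. The design asks how IPA affects the generation of myeloid-derived suppressor cells, myeloid cells that restrain T cells, in this medium. Each group had 4 libraries, numbered 1 to 4, and since the labels do not tie them to separate animals or cultures, p-values measure the spread between libraries, which may be technical.

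Arginine is shared by enzymes with different products. Inducible nitric oxide synthase (*Nos2*) turns it into nitric oxide and citrulline, and *Ass1* and *Asl* rebuild arginine from citrulline. Ornithine, which is also made from arginine, feeds polyamine synthesis through *Odc1*, *Srm* and *Sms*, polyamines are removed through *Sat1*, and *Oaz1* encodes an antizyme that sends ornithine decarboxylase to degradation. *Nos2* is a widely used readout of activated states in myeloid cells.

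Libraries held between 20451312 and 28038612 reads on genes. Replicates of a group differed by more than sampling noise. Levels are in CPM, read counts scaled to a common library total with edgeR's TMM factors, and groups were compared with edgeR's quasi-likelihood test, with Benjamini-Hochberg adjustment over all 14894 genes and a threshold of 0.05. The labelled myeloid culture matched its markers: all 7 leukocyte and myeloid genes were tested and summed to between 8118 and 10873 CPM per library. The 7 erythroid markers summed to at most 1.52 CPM, the 7 T and NK cell markers to at most 5.68 CPM and the 6 B cell markers to between 19.1 and 27.2 CPM with vehicle, 24.2 and 34.1 CPM at 10 µM and 37.9 and 60.9 CPM at 50 µM.

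*Nos2* (ENSMUSG00000020826, chromosome 11, 78920787 to 78960254), the inducible nitric oxide synthase, was lowest at the higher dose. With vehicle it was at 6.73, 11.7, 29.8 and 44.5 CPM in libraries 1 to 4. At 10 µM IPA the values were 27.6, 38.8, 72.8 and 47.9 CPM. At 50 µM IPA they were 5.76, 1.68, 3.11 and 5.96 CPM. The vehicle and 10 µM libraries overlapped, whereas each 50 µM library was below the lowest library of either other group.

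At 10 µM the log2 fold change of *Nos2* against vehicle was 1.02 (SE 0.48, adjusted p = 0.580 from edgeR's test). At 50 µM it was -2.50 (SE 0.52, adjusted p = 0.00705 from edgeR's test), 5.64 times below vehicle. Between the doses it was -3.52 (SE 0.32, adjusted p = 3.01e-06 from edgeR's test), 11.5 times lower at 50 µM. With 1 library left out at a time, the fall against vehicle lay between -2.81 and -1.96 and passed in 8 of 8 fits. Over all 16 alternative fits its highest adjusted p was 0.0475, with limma-voom, just under the threshold. In such bulk libraries, fewer cells of a type and less RNA per cell cannot be told apart. The paper states that cell viability was slightly lower at the higher dose. For that reason its own RNA-seq comparison was centred on the lower dose. The part of viability in the differences of *Nos2*, *Odc1* and other genes at the higher dose was not tested.

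**Figure D1:**
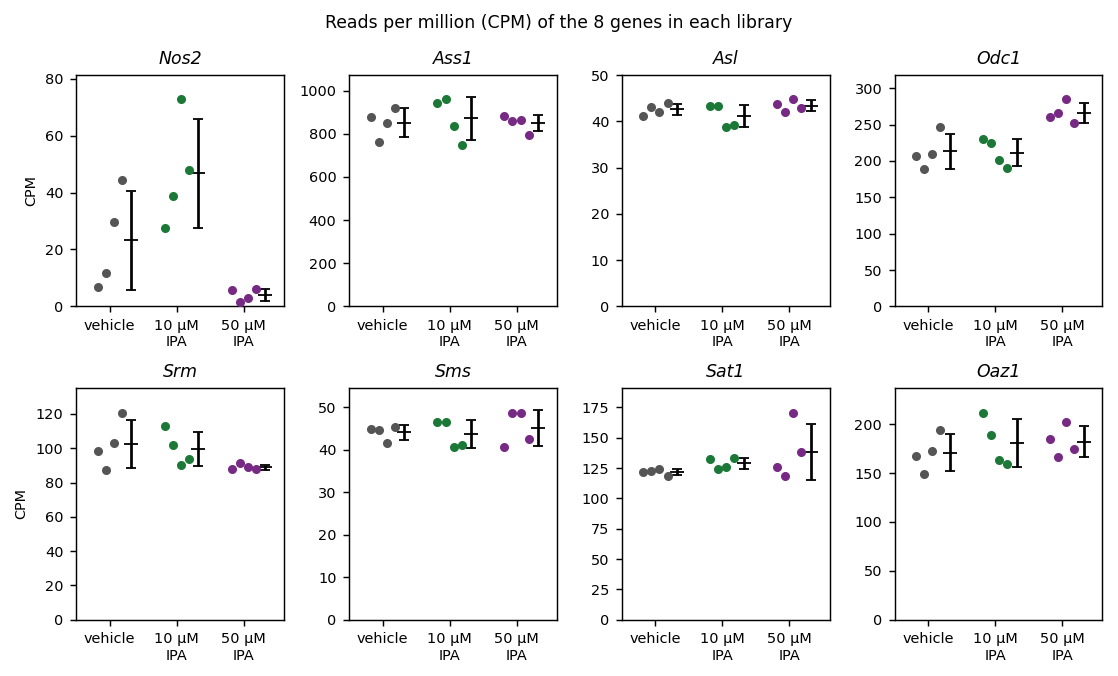
Level of each of the 8 genes in CPM (vertical axes from 0), with 1 point per library, libraries 1 to 4 from left to right in each group, and the mean ± SD of the 4 libraries beside them. *Nos2* is lowest in the 4 libraries at 50 µM and *Odc1* is highest there, while the other 6 genes overlap between all groups.

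The vehicle libraries were not alike in *Nos2*, with libraries 1 and 2 low and libraries 3 and 4 high, and markers of the cell types that such cultures hold were summed beside it. The 6 markers of Ly6C-high monocytes summed to 2686 to 3424 CPM with vehicle, 3837 to 4924 CPM at 10 µM and 2417 to 3120 CPM at 50 µM. Against vehicle, edgeR called 1 of 6 higher and 0 lower at 10 µM (3 at an unadjusted p under 0.05). At 50 µM it called 0 higher and 3 lower. DESeq2 called 2 higher and 0 lower at 10 µM and 0 higher and 4 lower at 50 µM. The 12 macrophage markers summed to 3806 to 4488, 4590 to 5271 and 4313 to 4778 CPM. At 10 µM 3 were higher and 0 lower by edgeR (10 at an unadjusted p under 0.05, and 6 higher by DESeq2). At 50 µM 3 were higher and 2 lower by edgeR, and 4 higher and 2 lower by DESeq2. The 12 neutrophil markers summed to 21567 to 30115, 20372 to 23417 and 15702 to 21399 CPM, with 0 called at 10 µM by edgeR, DESeq2 or limma-voom (3 at an unadjusted p under 0.05 by edgeR) and 0 higher and 7 lower at 50 µM. At 50 µM against vehicle 5 of 6 B cell markers, 2 of 4 megakaryocyte markers and 1 of 6 mast cell and basophil markers (*Gata2*) were also called higher and 0 lower by edgeR, and DESeq2 called the mast cell marker *Mcpt8* lower. In that comparison edgeR called 2 higher and 3 lower of 7 leukocyte and myeloid markers, 2 higher (*Ccr7*, *Zbtb46*) and 2 lower (*H2-Aa*, *H2-Ab1*) of 9 dendritic cell markers, 1 higher (*Ccr3*) of 5 eosinophil markers and 1 lower (*Lepr*) of 4 tested stromal and endothelial markers. Of all genes, 0.329% were called higher and 0.0806% lower at 10 µM, and 7.00% higher and 6.50% lower at 50 µM. Between the doses edgeR called 0 higher and 5 lower of 6 monocyte markers and 1 higher and 7 lower of 12 macrophage markers. It called 0 higher and 6 lower of 12 neutrophil markers and 5 higher and 0 lower of 6 B cell markers, beside 7.52% and 7.85% of all genes. Each marker in these 10 lists had reads in these libraries, and their part in the *Nos2* result was not tested.

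The enzymes that rebuild arginine did not pass the test at either dose. *Ass1* (ENSMUSG00000076441, chromosome 2, 31470207 to 31520672), argininosuccinate synthase, lay between 759 and 919 CPM with vehicle, 749 and 959 CPM at 10 µM and 794 and 881 CPM at 50 µM. Its log2 fold changes against vehicle were 0.03 (SE 0.088) at 10 µM and 0.0044 (SE 0.076) at 50 µM. *Asl* (ENSMUSG00000025533, chromosome 5, 130011258 to 130029247), argininosuccinate lyase, lay between 38.9 and 44.8 CPM over all 12 libraries, with log2 fold changes of -0.05 (SE 0.068) and 0.03 (SE 0.070). Neither gene passed the threshold in a comparison, and the lowest adjusted p of either was 0.501.

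*Odc1* (ENSMUSG00000011179, chromosome 12, 17544794 to 17551505), whose product makes putrescine from ornithine, stood highest at 50 µM. It was at 207, 189, 209 and 246 CPM in vehicle libraries 1 to 4. At 10 µM it was at 230, 224, 201 and 191 CPM. At 50 µM it was at 260, 266, 285 and 252 CPM. The 50 µM libraries lay above all others, the lowest at 252 CPM against 246 CPM in the highest vehicle library, and the vehicle and 10 µM libraries overlapped.

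The log2 fold change of *Odc1* was -0.01 (SE 0.090, adjusted p = 0.990 from edgeR's test) at 10 µM and 0.33 (SE 0.086, adjusted p = 0.0235) at 50 µM against vehicle, or 1.25 times vehicle. Between the doses it was 0.33 (SE 0.071, adjusted p = 0.00479). The call against vehicle was lost without vehicle library 1 (adjusted p = 0.0679), 2 (0.0506) or 3 (0.0747) and without 50 µM library 2 (0.0628) or 3 (0.0697). The call between the doses was kept in 8 of 8 such fits.

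The synthases downstream of *Odc1* did not pass in any comparison. *Srm* (ENSMUSG00000006442, chromosome 4, 148591503 to 148594993), spermidine synthase, was at 98.4, 87.5, 103 and 121 CPM with vehicle and at 87.6, 91.2, 88.9 and 87.7 CPM at 50 µM. These 50 µM values were close together and within the vehicle range, and at 10 µM the gene lay between 90.4 and 113 CPM. Its log2 fold change at 50 µM was -0.20 (SE 0.092, adjusted p = 0.181), with an adjusted p of 0.0462 without vehicle library 2. *Sms* (ENSMUSG00000071708, chromosome X, 157443855 to 157492287), spermine synthase, lay between 40.6 and 48.8 CPM over all 12 libraries, with log2 fold changes from -0.01 to 0.05. Its pseudogene *Sms-ps* is identical to it over 1101 aligned bases and held between 5.29% and 9.79% of the reads of both.

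The members that lower polyamines also stayed below the threshold. *Sat1* (ENSMUSG00000025283, chromosome X, 155213132 to 155216449), which acetylates polyamines for export or breakdown, was at 122, 122, 124 and 118 CPM with vehicle. At 50 µM it was at 126, 118, 171 and 138 CPM, so library 3 stood above the rest and the groups overlapped. Its log2 fold change at 50 µM was 0.19 (SE 0.10, adjusted p = 0.239), and 0.068 without that library. *Oaz1* (ENSMUSG00000035242, chromosome 10, 80826656 to 80829290) lay between 149 and 212 CPM over all 12 libraries, with log2 fold changes of 0.08 (SE 0.10) at 10 µM and 0.10 (SE 0.092) at 50 µM. Its pseudogene *Oaz1-ps* is identical to it at 683 of 684 aligned bases and took between 37.3% and 44.1% of the reads of both, so the level of *Oaz1* is uncertain. The bases around the one that differs, in capitals, are shown because no other aligned base tells the copies apart, from exon 1 of *Oaz1*, in its coding sequence (chr10:80826870-80826898, plus strand), and from the pseudogene (chr17:17346002-17346030, minus strand), both on GRCm38.
Oaz1: tagtcagcacagccGcggcggctgcagca
Oaz1-ps: tagtcagcacagccCcggcggctgcagca

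**Figure D2:**
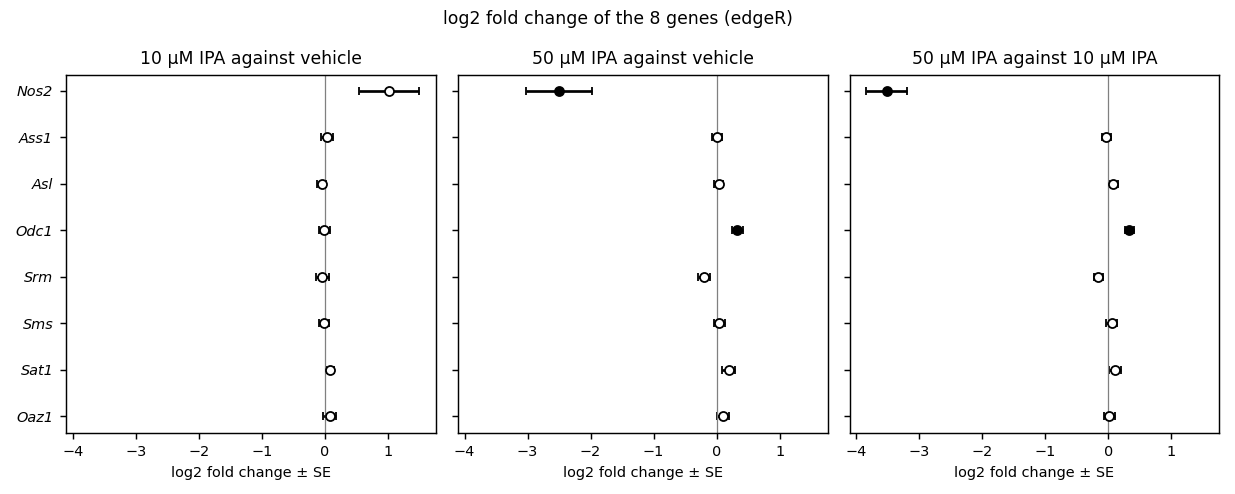
log2 fold change of each gene (horizontal axis, point) with its standard error (bar) in the 3 comparisons, filled where the adjusted p from edgeR's test is under 0.05. *Nos2* and *Odc1* are filled in the 2 panels with 50 µM IPA, and the other 6 genes lie between -0.20 and 0.19.

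Of the 8 genes, 0 were called at 10 µM against vehicle by edgeR, DESeq2 or limma-voom (0 at an unadjusted p under 0.05 by edgeR), where 0.329% of all genes were called higher and 0.0806% lower. At 50 µM against vehicle, 1 was called higher (*Odc1*) and 1 lower (*Nos2*), where 7.00% of all genes were called higher and 6.50% lower. Between the doses, the same 2 genes were called in the same directions, beside 7.52% and 7.85% of all genes. The groups did not overlap for 0, 2 and 2 of the 8 in these comparisons, beside 6.12%, 20.0% and 20.3% of all genes. The median log2 fold change of the 8 was 0.01, 0.04 and 0.03, against -0.01, 0.01 and 0.01 over all genes tested. Since the genes were selected with results known, these counts are a description.

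Levels were compared between genes per exon length, as CPM per kilobase of exons (RPKM). With vehicle, *Ass1* stood highest at 352 ± 28.0 RPKM (SD, n = 4), apart from all others. The places of *Oaz1* below leave out the reads counted on its pseudogene. *Oaz1* (66.9 ± 7.28), *Srm* (64.1 ± 8.67) and *Odc1* (62.6 ± 7.04) followed in RPKM and overlapped each other. *Sat1* came next at 43.9 ± 0.891 RPKM, apart from those above and below it. *Asl* (8.82 ± 0.255 RPKM) lay above *Sms* (7.34 ± 0.295 RPKM) in every vehicle library, and *Nos2* was last at 5.26 ± 3.93 RPKM and overlapped with both. At 10 µM *Nos2*, at 10.6 ± 4.36 RPKM, was in the sixth place and still overlapped with *Asl* and *Sms*. At 50 µM *Odc1* was at 78.0 ± 4.08 RPKM and overlapped with *Oaz1* (71.2 ± 6.13 RPKM). *Srm* (55.6 ± 1.05 RPKM) was then apart from both and overlapped with *Sat1* (49.8 ± 8.34 RPKM), and *Nos2* was last at 0.936 ± 0.473 RPKM, apart from all others.

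Beyond the 8 genes, 54 further genes of arginine, nitric oxide and polyamine metabolism were looked up in 6 lists, and 43 of them were tested. At 10 µM, 1 of the 43 was called, higher, beside the 0.329% of all genes. This was *Slc7a2*, a carrier of cationic amino acids that brings arginine into macrophages. Its level was 189, 185, 269 and 267 CPM with vehicle, 327, 398, 468 and 390 CPM at 10 µM and 195, 169, 143 and 176 CPM at 50 µM. It was higher in every 10 µM library than in any other library, and its 50 µM libraries overlapped with vehicle. The log2 fold change of *Slc7a2* was 0.80 (SE 0.14, adjusted p = 0.0394) at 10 µM and -1.21 (SE 0.10, adjusted p = 1.62e-06) between the doses. At 50 µM against vehicle it was -0.41 with an adjusted p of 0.0625 from edgeR's test, and it was below 0 in each of the 16 alternative fits and passed in 5 of them, DESeq2 included, with adjusted p from 0.00341 to 0.196. The call at 10 µM was kept in 2 of 8 fits without 1 library, those without vehicle library 4 or 10 µM library 1, and its highest adjusted p was 0.178, without 10 µM library 2.

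At 50 µM against vehicle, 9 of the 43 were called higher and 6 lower, beside the 7.00% and 6.50% of all genes. The 9 include *Slc7a3* and *Sat2*, which passed the filter on low counts only through libraries with IPA. Between the doses 8 were called higher and 4 lower (*Slc7a2*, *Atp13a2*, *Mat2a* and *Mat2b*), beside 7.52% and 7.85%. *Slc7a3* is among the 8 as well. The median log2 fold change of the 43 was 0.05 and 0.0034 in these comparisons. Of the 8 tested transport genes, 2 were called higher at 50 µM against vehicle by edgeR and 0 lower, and DESeq2 called the same 2 higher and *Slc7a2* lower. *Slc7a3*, another carrier of arginine, lay between 0.111 and 0.358 CPM with vehicle and between 4.17 and 6.80 CPM at 50 µM, with a log2 fold change of 4.71 (SE 0.34, adjusted p = 2.96e-06) that rests on few vehicle reads, and one of 4.64 (SE 0.42) between the doses. It passed the filter on low counts only through its 50 µM libraries. Its calls are therefore a description and add no support to the counts of genes called higher, which include it. *Slc3a2*, the heavy chain of several amino acid carriers, had a log2 fold change of 0.31 (SE 0.065).

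Of the 10 tested enzymes of arginine, ornithine and proline, 4 were called higher at 50 µM against vehicle and 1 lower, beside 7.00% and 6.50% of all genes. *Pycr1*, which completes proline synthesis, was at 4.69, 3.93, 5.24 and 7.43 CPM with vehicle and at 11.1, 11.0, 11.9 and 12.4 CPM at 50 µM. Its log2 fold change was 1.13 (SE 0.17, adjusted p = 0.000879) against vehicle and 1.52 (SE 0.13, adjusted p = 1.21e-06) against 10 µM. *Gatm*, which uses arginine for creatine synthesis, had a log2 fold change of 0.53 (SE 0.091, adjusted p = 0.00194). *Aldh18a1*, which starts proline and ornithine synthesis from glutamate, had 0.38 (SE 0.087), and *Nags*, which makes an activator of the urea cycle, 1.08 (SE 0.27). *Nags* was low, at 0.83 to 1.93 CPM with vehicle and 2.47 to 3.37 CPM at 50 µM. Its call was lost without 50 µM library 2 (adjusted p = 0.0535 from edgeR's test). *Prodh*, which oxidises proline, had -0.42 (SE 0.13) and an adjusted p of 0.0493 from edgeR's test. It passed in 1 of 8 fits without 1 library and was not called by limma-voom. The urea cycle genes *Cps1* and *Otc* had no read in any library.

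Of the 8 tested genes of nitric oxide and its cofactor, 1 was called higher and 0 lower at 50 µM against vehicle, beside 7.00% and 6.50% of all genes. *Nostrin*, a trafficking partner of endothelial nitric oxide synthase, had a log2 fold change of 0.91 (SE 0.11, adjusted p = 0.000121) and one of 0.67 (SE 0.097) between the doses. *Gch1*, which starts synthesis of the cofactor tetrahydrobiopterin, lay between 21.5 and 29.6 CPM in all 12 libraries and was not called. Neuronal and endothelial nitric oxide synthase, *Nos1* and *Nos3*, did not pass the filter on low counts.

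Of the 10 tested genes of polyamine synthesis, breakdown and transport, 1 was called higher (*Sat2*) and 5 lower at 50 µM against vehicle. Of all genes, 7.00% were called higher and 6.50% lower in this comparison. The 5 were *Atp13a2*, which exports polyamines from lysosomes (log2 fold change -0.75, SE 0.087, adjusted p = 0.000114), its relative *Atp13a3* (-0.27), *Mat2a* (-0.43), *Mat2b* (-0.34) and *Amd1* (-0.28). *Mat2a* and *Mat2b* encode subunits of the enzyme that makes S-adenosylmethionine, which *Amd1* turns into the aminopropyl donor used by *Srm* and *Sms*. Between the doses *Atp13a2* had a log2 fold change of -0.85 (SE 0.077), and *Paox*, which oxidises acetylated polyamines, was called higher with 0.50 (SE 0.12, adjusted p = 0.0118). *Paox* shares 142 exon bases with *Echs1* on the opposite strand, which held 17313 reads over the 12 libraries against 2969 for *Paox*, and as the strand setting of the counting is not given in the sources used here, its counts may include reads of that gene. *Amd1* passed in 3 of 8 and *Atp13a3* in 2 of 8 fits without 1 library, with highest adjusted p of 0.107 and 0.114. *Sat2*, a relative of *Sat1*, had a log2 fold change of 2.71 (SE 0.48) from at most 0.227 CPM with vehicle to a mean of 1.39 CPM at 50 µM, where all 4 libraries were above vehicle. It too passed the filter only through IPA libraries, so its call is likewise a description. *Azin2*, an antizyme inhibitor, rose with a log2 fold change of 1.30 (SE 0.27, adjusted p = 0.00727) and was the one of 3 tested antizyme genes that edgeR called, while DESeq2 also called *Azin1*, another antizyme inhibitor, lower (edgeR log2 fold change -0.23, SE 0.081, adjusted p = 0.0739). None of the 4 tested hypusination genes, which use spermidine to modify eIF5A, was called by edgeR at 10 µM (0 at an unadjusted p under 0.05), at 50 µM (1) or between the doses (2), and DESeq2 and limma-voom called 0 of them as well.

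**Figure D3:**
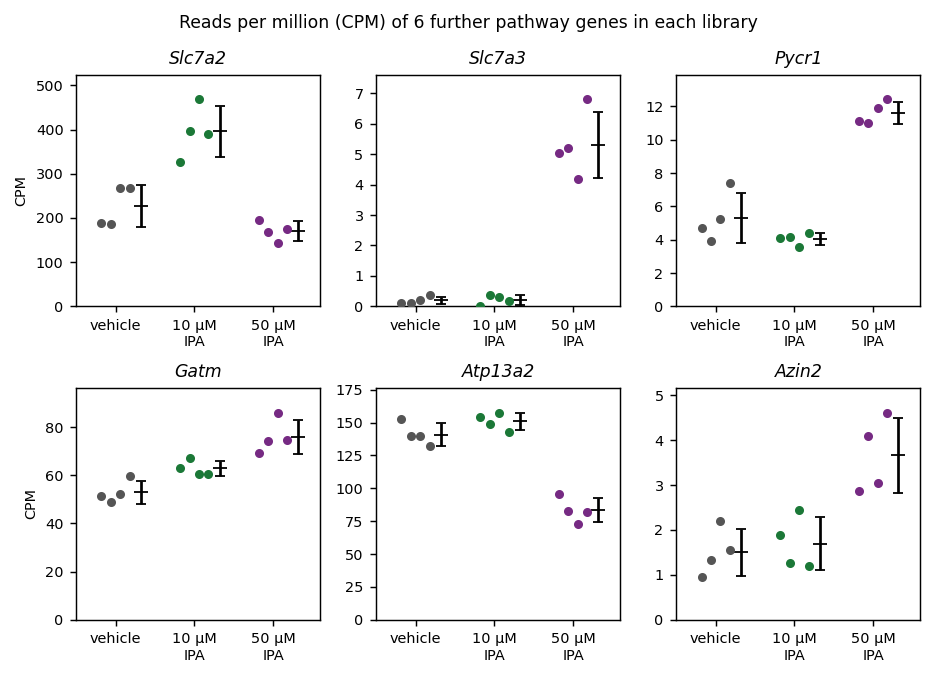
Level in CPM (vertical axes from 0) of 6 further pathway genes named above, with 1 point per library, libraries 1 to 4 from left to right in each group, and the mean ± SD of the 4 libraries beside them. *Slc7a2* is highest in the 4 libraries at 10 µM, *Slc7a3*, *Pycr1*, *Gatm* and *Azin2* are highest in the 4 at 50 µM, and *Atp13a2* lies there between 73.1 and 95.9 CPM, below every other library.

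**Figure D4:**
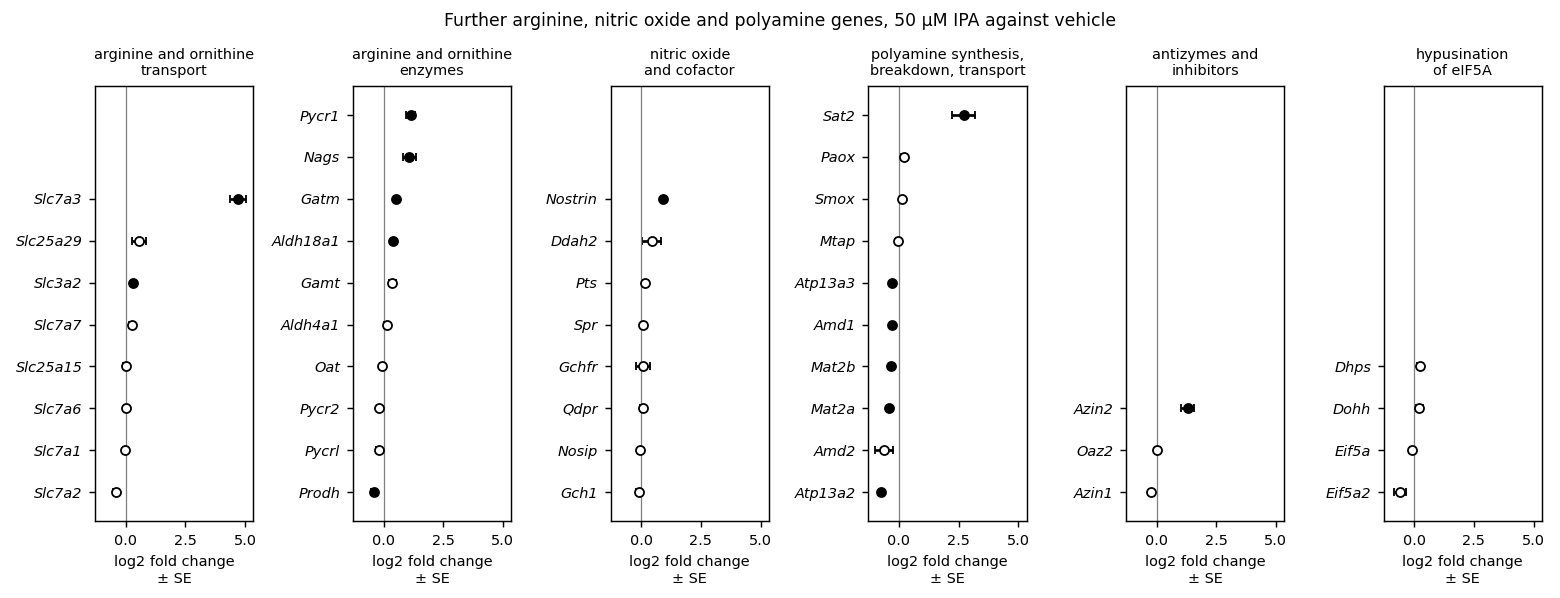
log2 fold change at 50 µM IPA against vehicle (horizontal axes, point) with its standard error (bar) for the 43 tested further genes, in 6 panels by role, filled where the adjusted p from edgeR's test is under 0.05. Filled points are 9 to the right of 0 and 6 to the left, and 5 of the 6 are in the panel of polyamine synthesis, breakdown and transport. The 9 include *Slc7a3* and *Sat2*, which passed the filter on low counts only through libraries with IPA.

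Transcription factors and receptors known to act on *Nos2* were looked at beside it. Of 14 tested genes known to act on *Nos2*, 0 were called at 10 µM by edgeR, where 1 had an unadjusted p under 0.05, and 0 by DESeq2 or limma-voom. At 50 µM against vehicle, where *Nos2* was lower, 2 were called higher and 2 lower by edgeR, and DESeq2 called 3 in each direction, adding *Irf1* (higher) and *Ifngr1* (lower), where edgeR called 7.00% of all genes higher and 6.50% lower. The interferon regulatory factors *Irf5* and *Irf8* had log2 fold changes of 0.56 (SE 0.073) and 0.40 (SE 0.066), and *Myd88*, an adaptor of Toll-like receptors, and *Tnfrsf1a*, a TNF receptor, had -0.26 and -0.29. The last 2 passed in 3 and 4 of 8 fits without 1 library. Between the doses, 3 were called higher (*Irf1*, *Irf5* and *Irf8*) and 3 lower (*Il1r1*, *Myd88* and *Tnfrsf1a*), beside 7.52% and 7.85% of all genes. *Irf5* shares 411 exon bases with *Tnpo3* and *Myd88* 290 with *Acaa1a*, each on the opposite strand, so their counts too may include reads of those genes.

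Finally, the genes whose profile over the 12 libraries was nearest to those of *Nos2* and *Odc1* were found among 12606 genes whose mean CPM reached 1, by the root-mean-square difference of centred log2 CPM. Nearest to *Nos2* were *F13a1* (0.48), *Ace* (0.65), *Apln* (0.70), *Smtnl2* (0.72) and *Ccl8* (0.79), where the profile of *Nos2* itself had a root-mean-square deviation of 1.67. *F13a1*, a coagulation factor gene that is among the 6 Ly6C-high monocyte markers above, was at 66.5, 75.0, 185 and 213 CPM in vehicle libraries 1 to 4 and at 52.1, 21.7, 28.2 and 39.8 CPM at 50 µM, so it too was low in vehicle libraries 1 and 2. Nearest to *Odc1* were *Ftl1* (0.040), *Hax1* (0.048), *Cox7c* (0.050), *Ccng1* (0.050) and *Gm13835* (0.056), against 0.19 for *Odc1*, so that its neighbours had small differences of the same size.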

How the data were processed

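Libraries were made with a stranded mRNA kit. Per the methods and the submitters' processing notes, reads were trimmed (Atropos), mapped to the mm10 genome (HISAT2 2.2.1) and summed over Ensembl GRCm38 genes (featureCounts 2.0.1). The values the authors deposited are raw counts of reads per gene, without normalization or a filter on genes. The submitters' notes also name DESeq2 1.40.2.

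A gene was tested if at least 2 of the 12 libraries exceeded 0.5 CPM. Each pair of groups was fitted on its 8 libraries in edgeR 4.0.16 (TMM, glmQLFit, glmQLFTest, R 4.3.3), without a replicate block, with Benjamini-Hochberg adjustment. The steps were tested on simulated counts. The title of 10 µM replicate 3 repeats that of replicate 2, so its library name gave the number. Positions, exon lengths and the printed bases are from GENCODE M21 (GRCm38).

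The members and lists were chosen with earlier results of these data known, and some of their genes are not reported here. The 8 members reported were all named, of the further pathway and regulator lists up to 12 called genes a comparison by adjusted p, and 5 nearest profiles per gene. Other genes, among them *Gch1*, those without reads and the called pathway genes past the first 12 at 50 µM, were named after their values were seen. Alternatives were DESeq2 1.42.0, limma-voom (limma 3.58.1), DESeq2's size factors, a minimum of 10 counts in every library, no minimum, all 12 libraries in the fit, a replicate block, each library left out and, chosen after seeing the data, an offset for exon length.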

Additional observations from a re-analysis of the deposited data

Results flagged for a closer look

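In 93 groups of 4 libraries (31 genes), 3 held a library far from the other 3 by Dixon's test, near the 5% of groups that chance flags. *Sms* was at 41.5 CPM in vehicle library 3, against 44.8 to 45.4 CPM in the others. *Slc3a2* was at 355 CPM in 50 µM library 2, against 335 to 337 CPM. *Il1r1* was at 6.35 CPM in 50 µM library 1, against 3.49 to 3.95 CPM. Neither *Nos2* nor *Odc1* was among them.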

How the results depend on the processing

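Of 192 values of single members outside the fits that left out a library, 185 kept their direction and side of the threshold, and of 192 with a library left out, 163 did. The log2 fold change of *Ass1* at 50 µM against vehicle was 0.0044 and turned to -0.003 with DESeq2 and with its size factors, -0.0049 with no filter, -0.0028 with all 12 libraries and -0.031 with the exon length offset. That of *Oaz1* between the doses turned from 0.01 to -0.0021 with this offset, under which *Srm* passed at 50 µM (adjusted p = 0.0349). With libraries left out, differences near 0 also changed sign. At 10 µM these were *Ass1* (-0.017 to 0.10), *Oaz1* (-0.0040 to 0.15), *Odc1* (-0.065 to 0.067), *Sms* (-0.047 to 0.020) and *Srm* (-0.11 to 0.049). At 50 µM against vehicle they were *Ass1* (-0.054 to 0.044) and *Sms* (-0.0046 to 0.080). Between the doses they were *Ass1* (-0.10 to 0.015), *Oaz1* (-0.043 to 0.10) and *Sat1* (-0.010 to 0.17). The cause was not tested.

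With libraries left out, between 1 and 2 of the 8 genes were called at 50 µM against vehicle, and between 0 and 1 further pathway genes at 10 µM. Over all genes, the 61 calls at 10 µM were 250 with DESeq2, 150 with no filter, 118 with all 12 libraries, 102 with the exon length offset and 4 (without 10 µM library 2) to 122 (without vehicle library 4) with libraries left out. The 2010 calls at 50 µM were 2554 with DESeq2, 2450 with all 12 libraries and 2442 with the exon length offset. With libraries left out they ran from 1248 (without vehicle library 3) to 2689 (without vehicle library 4), with 1313 without 50 µM library 2. The replicate numbers did not pair the libraries (correlations of same-numbered deviations from -0.39 to 0.23), and with a replicate block 3 genes were called at 10 µM, with 0 of the further pathway genes in place of 1, since *Slc7a2* did not pass.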
